A study of Mus musculus with 4 samples.

Results

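Matrix metalloproteinases and the tissue inhibitors that block them (TIMPs) were followed in NIH3T3 cells, an established mouse embryonic fibroblast line, after transfection with Erbb2. The genes were Mmp2, Mmp9, Mmp11, Mmp14, Timp1, Timp3 and Timp4, which are 7 of the 6327 genes with a value on every array. They were chosen by gene symbol with earlier results of these data known, as were the lists of related genes below. The 7 genes are represented by 15 named probes among the 20355 spots. RNA of the Erbb2 transfected line, labelled as overexpressing Erbb2, was hybridised on each of 4 two-colour arrays together with RNA of untransfected NIH3T3 cells, labelled as having normal Erbb2 expression. Arrays 1 and 2 had the transfected sample in Cy5, and the dyes were swapped on arrays 3 and 4. The submitters describe the arrays as technical replicates without stating whether they shared the same RNA extracts. This is read here as 1 sample per line. Every SD, interval and p-value given here therefore covers the spread between hybridisations and not that between cultures or transfected clones. SDs are taken over the arrays directly. Intervals and p-values come from a fit with a dye term and rest on the spread left within each dye orientation. Where the orientations differ, they can be narrower than the SD over arrays would imply. The vector, the promoter and the number of clones behind the transfected line are not stated in the labels.

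MMPs are zinc-dependent endopeptidases that are made as inactive proenzymes and cut collagens, gelatin, fibronectin and other matrix proteins as well as growth factors and receptors. TIMPs bind to the active site of the mature enzymes and stop them, and the balance of both families sets how fast matrix is turned over around a cell. Fibroblasts are a main source of Mmp2, of the membrane-bound Mmp14 and of TIMPs in connective tissue. Oncogenic growth factor receptors such as the product of Erbb2 signal through RAS and MAP kinases to AP-1 and ETS transcription factors, which are known regulators of several MMP and TIMP promoters.

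The deposited values are log2 ratios of both channels. Their direction is not stated and is likely transfected over untransfected, so that a value below 0 is read as lower in the transfected line. If that reading is wrong for all arrays, all signs turn together. Signs were used as deposited, and whether both dye orientations share 1 direction is not stated. If only arrays 3 and 4 were reversed, genes with 1 sign on all 4 arrays would follow the dyes instead. Genes whose sign follows the dyes would then have 1 sign. Between 76.8% and 94.6% of spots had a value per array, and the median over the 6327 genes lay between -0.16 and 0.10 on the 4 arrays. Arrays 2 to 4 are displaced against array 1 in the lower part of the table, by 3 rows between rows 8001 and 18000 and by 4 rows from row 18301, and were read with that offset. Of the 15 probes, 11 lie in the first 6000 rows, where no offset applies, and 4 lie in the last part. No spot was named for Erbb2, so the transfected gene itself was not checked. Ratios do not give levels, so whether fibroblast markers were present in either line could not be read from these files. Of 7 fibroblast markers measured on all arrays, 3 had a mean below 0, as had 56.1% of all genes, and the median was 0.24. Col1a1, Col1a2 and Fn1 were below 0 on every array, as were 13.0% of all genes, and Vim, Col3a1, Pdgfra and S100a4 had means of 0.66 ± 0.18, 0.89 ± 1.36, 0.45 ± 1.85 and 0.24 ± 0.80 (SD, n = 4 arrays). In RNA of whole cultures, fewer cells making a transcript and less transcript per cell cannot be told apart.

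Timp3, Mmp14 and Mmp2 had the lowest ratios of the family, and Mmp9, Mmp11, Timp1 and Timp4 lay near 0. Timp3 averaged -3.97 ± 1.33 on the log2 scale (SD, n = 4 arrays, as for all gene means below), a 15.7-fold lower level in the transfected line. Mmp14 averaged -1.93 ± 1.68 and Mmp2 -1.01 ± 0.61, which are 3.82-fold and 2.02-fold lower levels. These 3 of the 7 genes were below 0 on all 4 arrays, as were 13.0% of all genes, and 0 of the 7 were above 0 on all 4, against 9.58% of all genes. The same 3 genes had means below -1, as had 7.70% of all genes, and 0 had a mean above 1 (3.87% of all genes). No member passed limma's test over all 6327 genes, in which 0 genes (0%) reached an adjusted p under 0.05 and the smallest adjusted p of any gene was 0.105. At an unadjusted p under 0.05 in limma, 3 of the 7 genes were lower and 0 higher, where the shares among all genes were 7.49% and 4.05%. The median of the 7 gene means was -0.23, beside -0.08 over all genes tested. Because the genes were chosen with earlier results known, these counts and shares describe them and are no test of the family.

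**Figure D1:**
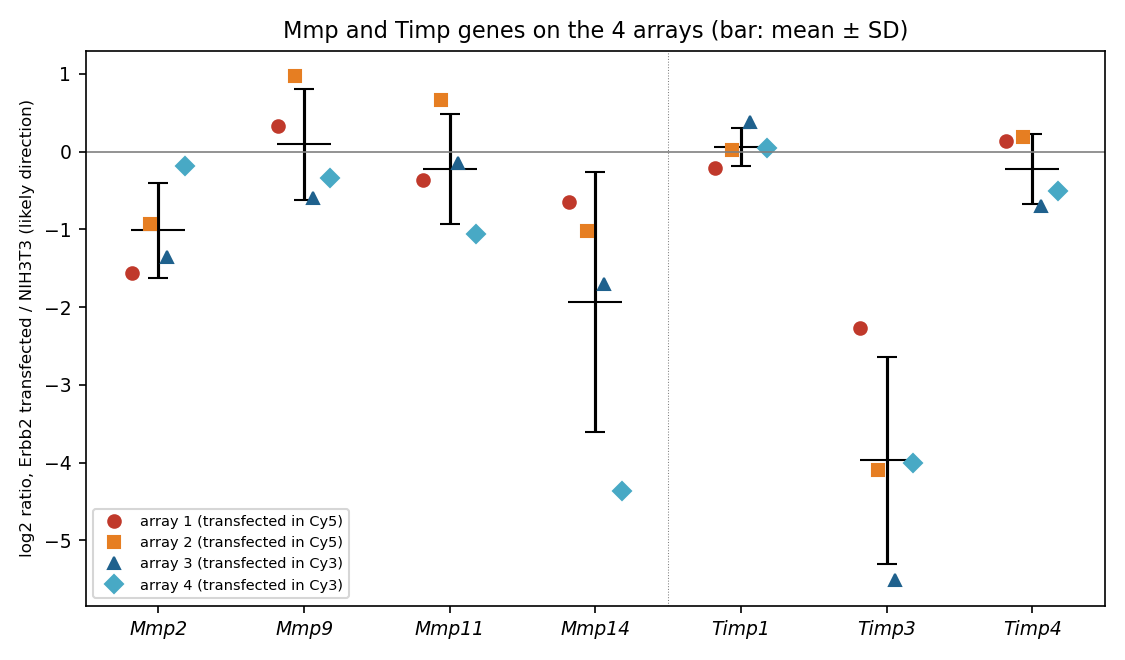
Log2 ratio of each Mmp and Timp gene (horizontal axis) on each of the 4 arrays, Erbb2 transfected over untransfected NIH3T3 in the likely direction. Symbols are arrays, averaged over the probes of a gene, and bars are the mean ± SD over arrays. Timp3 lies between -5.51 and -2.27, and on each array it is the lowest of the 7 genes except on array 4, where Mmp14 is lower at -4.36.

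Timp3 encodes the TIMP that is anchored in the extracellular matrix and that inhibits, besides MMPs, several ADAM and ADAMTS proteases. Its gene ratio was -2.27, -4.09, -5.51 and -4.0 on arrays 1 to 4. It was far below 0 on each of them, and 0.89%, 0.82%, 0.32% and 0.60% of all genes had a lower value on arrays 1 to 4. By its mean it was the 4th lowest of 6327 genes. Limma gave a 95% interval of -5.13 to -2.81, which corresponds to a level between 7.02-fold and 34.9-fold lower, and an adjusted p of 0.161. The estimate lay between -4.42 and -3.51 when any 1 array was left out.

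The array carried 4 probes named for Timp3 (gene ID 21859, chromosome 10), at rows 447, 453, 503 and 515, all in the part of the table that needs no offset. Row 447 had -2.25, -4.72, -5.42 and -3.68 on arrays 1 to 4. Row 503 had -3.83, -5.61 and -4.90 on arrays 1, 3 and 4, and row 515 had -3.89, -3.46 and -3.42 on arrays 1, 2 and 4. These probes were below 0 wherever they had a value, with means from -4.78 to -3.59. Row 453 had a value on array 1 only, 0.89, and so stood apart from the other Timp3 probes. That single value raised the gene average of array 1, the array with the ratio nearest to 0. With probes that had at least 3 values only, a choice made after this was seen, the Timp3 mean was -4.23 and limma's adjusted p 0.107.

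Sequences before the transcription start are shown for Timp3 and Mmp14, the genes with the lowest means, and for Timp1, a TIMP whose mean was near 0. They are the 250 bases before the RefSeq start (build GRCm38.p6, plus strand), at chr10:86300162-86300411, chr14:54431348-54431597 and chrX:20869916-20870165, with matches to the GC box letters GGGCGG or CCGCCC in capitals.
Timp3: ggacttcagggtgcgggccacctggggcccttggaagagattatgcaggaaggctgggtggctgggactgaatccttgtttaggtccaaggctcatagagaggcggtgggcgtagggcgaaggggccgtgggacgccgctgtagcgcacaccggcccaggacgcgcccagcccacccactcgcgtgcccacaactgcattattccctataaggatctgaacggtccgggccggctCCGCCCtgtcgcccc
Mmp14: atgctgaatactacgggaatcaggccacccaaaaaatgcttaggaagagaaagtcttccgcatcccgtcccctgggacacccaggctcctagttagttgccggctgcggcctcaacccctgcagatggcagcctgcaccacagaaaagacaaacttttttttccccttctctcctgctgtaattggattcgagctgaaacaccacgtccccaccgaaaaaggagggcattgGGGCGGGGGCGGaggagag
Timp1: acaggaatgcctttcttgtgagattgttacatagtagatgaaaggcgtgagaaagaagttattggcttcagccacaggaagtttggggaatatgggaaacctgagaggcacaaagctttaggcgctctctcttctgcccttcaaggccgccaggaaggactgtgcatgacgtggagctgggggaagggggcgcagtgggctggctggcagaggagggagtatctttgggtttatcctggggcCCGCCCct
Timp3 and Timp1 each held 1 match and Mmp14 held 2, which adjoin each other. Among 32851 promoters of the same length, 32.7% held such a match on either strand. The AP-1 letters TGACTCA or TGAGTCA, present in 4.46% of all promoters, were in 0 of the windows of these genes, and neither were the ETS letters CCGGAAG or CTTCCGG (6.91%) nor the TATA letters TATAAA or TTTATA (12.4%). Timp4 and Mmp11 had 0 and 2 GC box matches in their windows and none of the other motifs, and Mmp2 and Mmp9 had no entry in the promoter table. A match in these windows is a description of the letters only.

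Timp1 and Timp4 had means near 0, unlike Timp3. Timp1 encodes a soluble TIMP that also binds the proenzyme of Mmp9, and its ratio was -0.22, 0.02, 0.37 and 0.05 on arrays 1 to 4, with a mean of 0.06 ± 0.24. The limma interval ran from -0.65 to 0.76 (adjusted p = 0.949). Both the mean near 0 and the small SD are those of an average over 2 probes on opposite sides of 0, with SDs of 0.50 and 0.49 of their own. Row 1493 (gene ID 21857, chromosome X) had -1.14, -0.33, -0.59 and 0.05, while row 20342 had 0.71, 0.37 and 1.33 on arrays 1 to 3 and no value on array 4. Row 20342 lies in the last 150 rows of the table, where between 44.0% and 57.3% of spots had a value and where array 1 did not line up with arrays 2 to 4 at the offset of 4 rows (mean r = -0.05 across spots, which are not independent replicates). Without those rows Timp1 rested on row 1493, with a mean of -0.50 and an adjusted p of 0.567 in limma. For row 1493 in the fit over single probes the limma interval was -1.33 to 0.32.

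Timp4, a TIMP with a narrow tissue distribution, had 0.13, 0.18, -0.71 and -0.51 on arrays 1 to 4, with a mean of -0.22 ± 0.45 and a limma interval of -0.92 to 0.47 (adjusted p = 0.766). It was above 0 on the arrays with the transfected sample in Cy5 and below 0 on those with it in Cy3. Its probes (gene ID 110595, chromosome 6) at rows 3579 and 19919 both had that pattern, with 0.58, 0.89, -0.40 and -0.47 for row 3579 and 0.51, 0.14, -1.01 and -0.52 for row 19919. The probe at row 19966 was below 0 on all 3 arrays that measured it, with -0.69, -0.48 and -0.54 on arrays 1, 2 and 4. Within single arrays the difference of Timp3 minus Timp1 was between -5.89 and -2.05, and that of Timp3 minus Timp4 between -4.81 and -2.40, in log2 units.

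**Figure D2:**
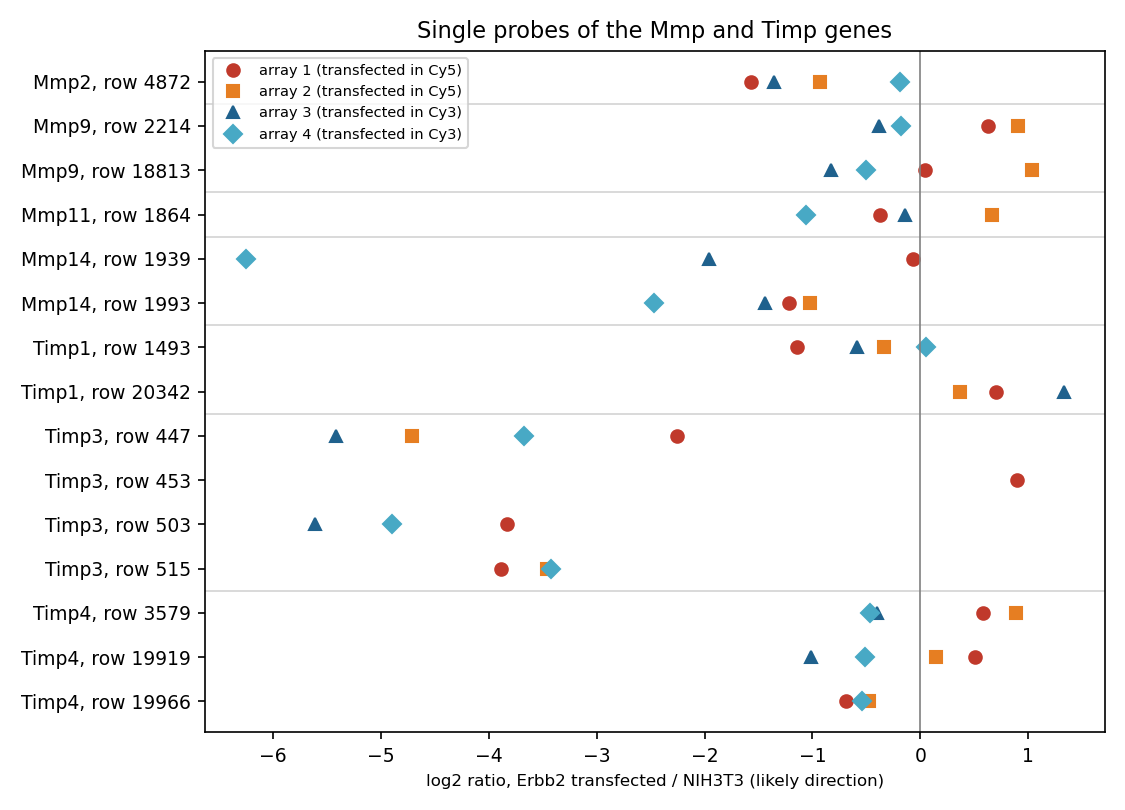
Log2 ratio (horizontal axis) of each of the 15 probes, named by gene and table row, on the arrays that measured it. The Timp3 probes at rows 447, 503 and 515 lie below -2.2 on every array with a value, and the Timp1 probes lie on opposite sides of 0 apart from 1 value of 0.05.

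Among the proteases, Mmp14 and Mmp2 had the lower ratios. Mmp14 encodes a membrane-anchored collagenase that activates the proenzyme of Mmp2 at the cell surface, and its ratio was -0.65, -1.03, -1.70 and -4.36 on arrays 1 to 4. All arrays were below 0, with array 4 far lower than the others, and 90.9% of all genes had a smaller SD. Limma gave an interval of -3.19 to -0.67 and an adjusted p of 0.354. Without array 4 the estimate was -1.27 (adjusted p = 0.247), and without array 3 it was -2.60. The low value of array 4 came mainly from 1 of the 2 Mmp14 probes (gene ID 17387, chromosome 14). Row 1939 had -0.07, -1.96 and -6.25 on arrays 1, 3 and 4, while row 1993 had -1.22, -1.03, -1.44 and -2.47 on arrays 1 to 4. Row 1993 by itself had a mean of -1.54 ± 0.64 and was below 0 on 4 of 4 arrays (limma over 7603 probes, adjusted p = 0.329).

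Mmp2, the gelatinase that Mmp14 activates, was measured by 1 probe (row 4872, gene ID 17390, chromosome 8) with -1.57, -0.93, -1.36 and -0.19 on arrays 1 to 4. The ratio was below 0 on 4 of 4 arrays and nearest to 0 on array 4, the array on which Mmp14 was lowest. Limma gave an interval of -1.88 to -0.15 and an adjusted p of 0.396. The estimate ranged from -1.30 to -0.72 with any 1 array left out, and its unadjusted limma p was above 0.05 without array 1 (0.134), array 2 (0.0632) or array 3 (0.131).

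Mmp9 and Mmp11 gave no clear direction. Mmp9, the other gelatinase, had 0.33, 0.97, -0.60 and -0.34 on arrays 1 to 4, a mean of 0.09 ± 0.71 and a limma interval of -0.65 to 0.83 (adjusted p = 0.921). Both of its probes (gene ID 17395, chromosome 2) changed sign with the dyes: row 2214 had 0.63, 0.91, -0.38 and -0.18, and row 18813 had 0.04, 1.04, -0.83 and -0.50. Mmp11, a protease named stromelysin 3 that is typical of the stroma around tumours and is activated inside the cell by furin, was measured at row 1864 (gene ID 17385, chromosome 10). It had -0.37, 0.66, -0.15 and -1.06 on arrays 1 to 4, with a mean of -0.23 ± 0.71, an interval of -1.10 to 0.65 and an adjusted p of 0.809 in limma. Array 2 was above 0 and the other arrays below it. The means of Mmp9 and Mmp11 turned sign when certain single arrays were left out, to -0.07 for Mmp9 without array 2 and to 0.03 for Mmp11 without array 1.

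Ordered by mean, the genes ran from Timp3 through Mmp14, Mmp2, Mmp11, Timp4 and Timp1 to Mmp9. Timp3 minus Mmp14 was -2.04 ± 1.84 log2 units and was below 0 on 3 of 4 arrays, with 0.36 on array 4. Mmp14 minus Mmp2 was -0.92 ± 2.23 and Mmp2 minus Mmp11 was -0.78 ± 1.12, each below 0 on 3 of 4 arrays. No neighbours from Mmp14 on thus differed by more than the SD of their difference between arrays, and only Timp3 and Mmp14 did. From Mmp11 to Mmp9 neighbours differed by 0.28 or less, with 2 arrays on each side of 0. Averaged per array, the 4 Mmp genes had -0.56, -0.08, -0.95 and -1.49 and the 3 Timp genes -0.78, -1.30, -1.95 and -1.49. Without Timp3 the mean of the other 6 genes was -0.54 ± 0.44.

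**Figure D3:**
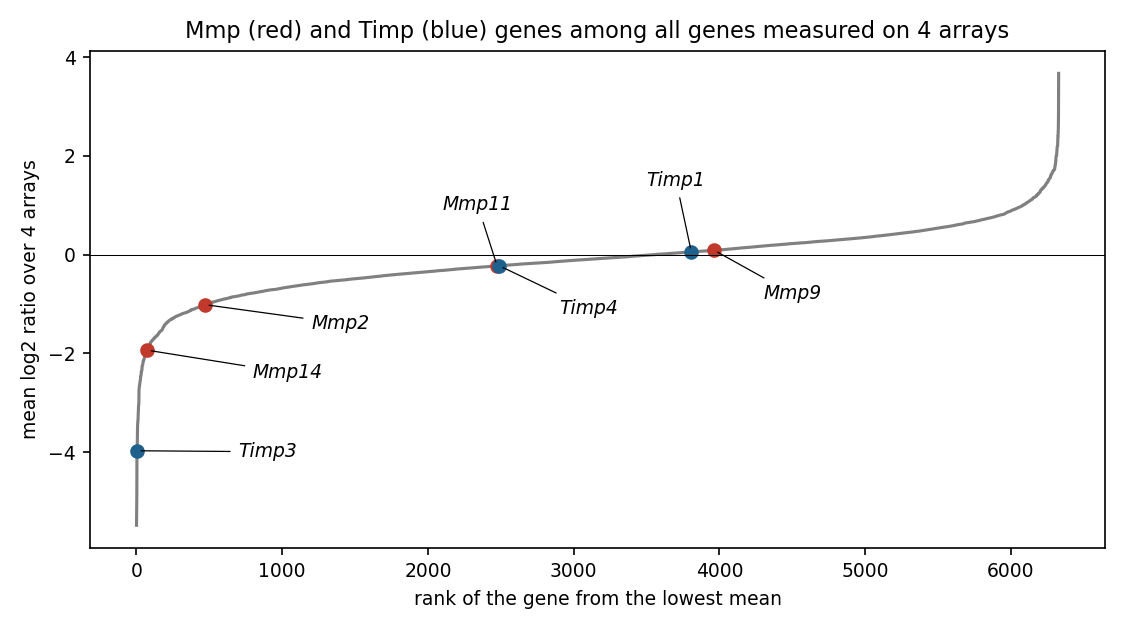
Mean log2 ratio over 4 arrays (vertical axis) of all 6327 genes, ranked from the lowest mean (horizontal axis), with the Mmp genes in red and the Timp genes in blue. Timp3 is at rank 4, Mmp14 at rank 74 and Mmp2 at rank 471, and the other genes lie between ranks 2475 and 3963.

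The sign of the ratio followed the dye orientation on all 4 arrays in 2 of the 7 genes. Mmp9 and Timp4 were above 0 on both arrays with the transfected sample in Cy5 and below 0 on both arrays with it in Cy3, a pattern shared by 8.65% of all genes, and the opposite pattern was seen in 3.67% of all genes and in 0 of the 7. For Mmp9 the orientation means were 0.65 in Cy5 and -0.47 in Cy3, and for Timp4 they were 0.16 and -0.61. Timp3 had -3.18 in Cy5 and -4.76 in Cy3, and Mmp14 had -0.84 and -3.03, so both were below 0 in either orientation. The difference of the orientation means, Cy5 minus Cy3, was 2.19 for Mmp14 and 1.58 for Timp3. It was 1.12 for Mmp9 and 0.76 for Timp4. For Mmp2, below 0 in either orientation with -1.25 in Cy5 and -0.77 in Cy3, it was -0.48. Probe coverage was uneven, since Mmp14 row 1939 had no value on array 2 and Timp3 row 453 had a value on array 1 only. Timp3 row 503 had no value on array 2 and row 515 none on array 3. Timp3 row 447, measured on all arrays, had -3.49 in Cy5 and -4.55 in Cy3. Row 503 had -3.83 and -5.26, while row 515 went the other way with -3.68 and -3.42. Mmp14 row 1993 by itself had -1.12 in Cy5 and -1.96 in Cy3. The dye term of the limma model was below an unadjusted p of 0.05 in 0 of the 7 genes, against 5.31% of all genes, and its smallest value in the family was 0.0758, for Mmp14. Whether dye bias contributes to the single ratios was not tested beyond this term.

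**Figure D4:**
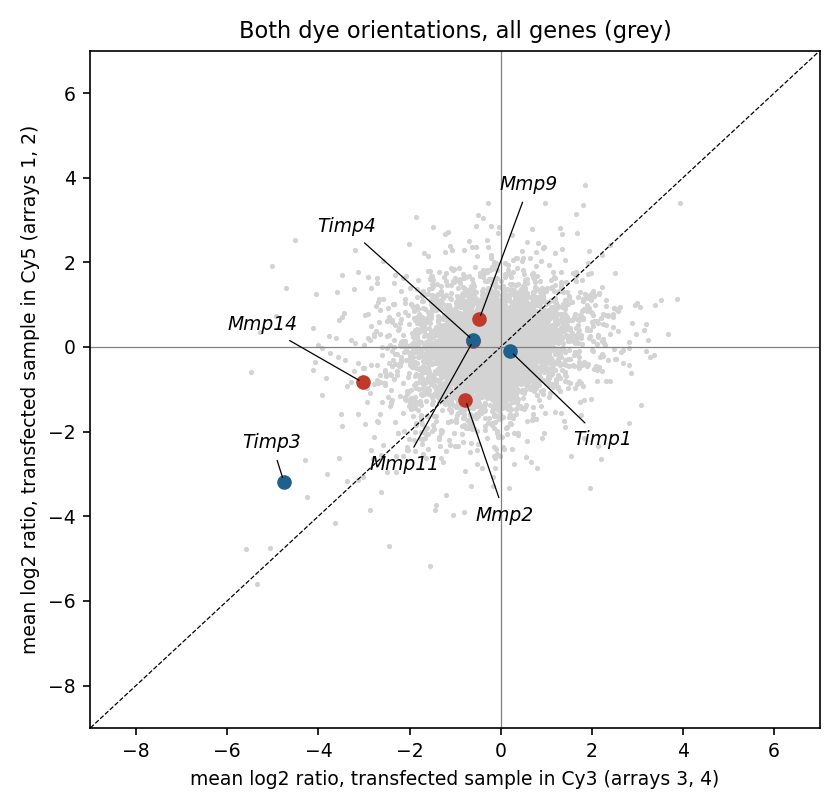
Mean log2 ratio with the transfected sample in Cy5 (vertical axis, arrays 1 and 2) against that with it in Cy3 (horizontal axis, arrays 3 and 4) for all 6327 genes in grey, Mmp genes in red and Timp genes in blue. On the dashed line both orientations are equal. Timp3, Mmp14 and Mmp2 lie in the lower left part, below 0 in both orientations.

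Other MMPs and TIMPs were measured less completely. Of 20 further genes of both families, 8 had a value on at least 1 array and 1, Mmp24, on all 4. Mmp24, a membrane-bound MMP, had -0.27, -2.01, -0.36 and 0.89, with a mean of -0.44 ± 1.19 (limma, adjusted p = 0.715). Timp2, the TIMP that links Mmp14 to the Mmp2 proenzyme, had 0.68, 1.31 and 1.01 on arrays 1, 2 and 4 and no value on array 3, and its mean of 1.0 ± 0.32 (n = 3 arrays) was not tested. It was above 0 wherever measured, which sets it beside Timp3 with the opposite sign. The glycosylphosphatidylinositol-anchored Mmp17 had 0.42, -2.26 and -2.01 on arrays 1, 3 and 4. The collagenase gene Mmp13 had 1.33, -0.49 and -1.09 on the same arrays, and the macrophage elastase gene Mmp12 had -0.31, 1.91 and -0.69. All of these changed sign between arrays. Mmp3 (-1.86), Mmp7 (-3.36) and Mmp8 (2.10) each had a value on 1 array, and Mmp12 and Mmp7 lie in the last 150 rows, where the offset is uncertain.

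Genes that activate or bind MMPs had ratios on both sides of 0. The serine protease plasmin activates several MMPs. Of 11 genes of plasminogen activation 3 were tested, of which 2 had a mean below 0, as had 56.1% of all genes. S100a10, which encodes a plasminogen receptor subunit, had 1.08, 1.29, 1.19 and 0.44 on arrays 1 to 4 (mean 1.0 ± 0.38, limma's adjusted p = 0.382). Plgrkt, which encodes another plasminogen receptor, had -1.04, -0.81, -1.28 and -0.04 (mean -0.79 ± 0.54, adjusted p = 0.461 in limma). S100a10 was above 0 and Plgrkt below 0 on 4 of 4 arrays. Serpinf2, which encodes the plasmin inhibitor antiplasmin, had a mean of -0.0028 ± 1.25, and Plau, the urokinase gene, had -0.94, -0.13 and -0.41 on arrays 1, 3 and 4. Of 16 MMP activators, cofactors and clearance receptors 5 were tested, of which 2 were lower and 1 higher at an unadjusted limma p under 0.05, where the shares among all genes were 7.49% and 4.05%. Cd44, a hyaluronan receptor that docks MMPs at the cell surface, had 1.37 ± 0.68 and was above 0 on 4 of 4 arrays (adjusted p = 0.315 in limma). The lower ones, named here after their values were seen, were the MMP inducer gene Bsg (-0.82 ± 0.26) and the endocytic receptor gene Lrp1 (-0.93 ± 1.20). Bsg was below 0 on every array, while Lrp1 had -0.23, 0.35, -1.60 and -2.25 on arrays 1 to 4 and so differed between the dye orientations. Furin, which encodes the convertase that activates Mmp11 and Mmp14, had 0.69 ± 1.30.

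Cathepsins, which are mostly lysosomal proteases, and cystatins, which inhibit cysteine proteases, had 8 genes tested of 14, with a median of -0.44. Ctsd had -1.16 ± 0.61 and Ctsa -1.06 ± 0.54, both below 0 on every array and both at an adjusted p of 0.381 in limma. At an unadjusted limma p under 0.05, Cst3 (-0.90 ± 0.20) was lower as well and Ctsl (0.85 ± 0.37) was higher, both named after their values were seen. Among 17 AP-1, ETS and RUNX transcription factors, 7 were tested and their median was 0.31. Fosl1, an AP-1 subunit, had 0.88, 1.18, 1.27 and 1.66 (mean 1.25 ± 0.32, limma's adjusted p = 0.31), and Fosb, another AP-1 subunit, had -0.01, -1.54, -2.62 and -0.55. Fosl1 was above 0 and Fosb below 0 on 4 of 4 arrays.

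Matrix proteins cut by MMPs had the lowest ratios of these lists. Of 24 substrates 15 were tested, of which 14 had a mean below 0 (56.1% of all genes), 9 were below 0 on all arrays (13.0% of all genes) and 10 were lower at an unadjusted limma p under 0.05 (7.49% of all genes), with 0 higher. Their median was -1.64. The list was chosen with earlier results known, so these shares are a description and no test of it. Fn1 (fibronectin) had -3.89 ± 0.36, Col1a1 and Col1a2, which encode the chains of type I collagen cut by Mmp14, had -4.91 ± 1.46 and -3.36 ± 0.69, and the proteoglycan gene Bgn had -5.48 ± 3.13. Sparc (-3.14 ± 0.42), Fbln2 (-3.27 ± 0.51), Col5a2 (-1.64 ± 0.96), Col6a2 (-1.55 ± 1.17) and Col5a1 (-1.09 ± 0.99) were also below 0 on every array. Limma's adjusted p for these 9 genes lay at 0.105 or above. Col3a1 was the tested substrate with a mean above 0 (0.89 ± 1.36).

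**Figure D5:**
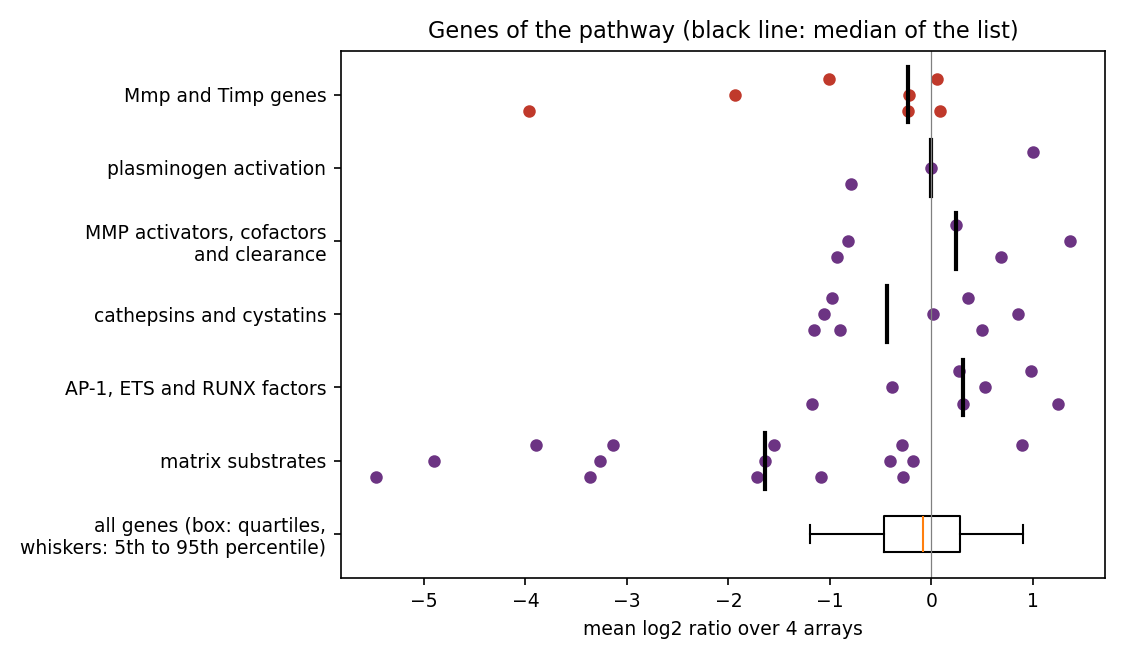
Mean log2 ratio over 4 arrays (horizontal axis) of each gene measured on all arrays, by list, with a black line at the list's median and a box for all 6327 genes. The Mmp and Timp genes have a median of -0.23 and the matrix substrates of -1.64, and the median of all genes is -0.08.

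The genes whose ratios over the 4 arrays were nearest to those of Timp3 by Euclidean distance were Rgs2 (1.41 log2 units away), Itih2 (1.86), Ncoa4 (2.09), Sparc (2.49) and Gstm1 (2.56). Rgs2, which encodes a regulator of G protein signalling, had -2.34, -4.74, -4.28 and -4.22 on arrays 1 to 4. Like the gene average of Timp3, it was nearest to 0 on array 1. That Timp3 average includes the single value of row 453 (0.89), which raised it, and distances without that value were not computed. Itih2, which encodes a heavy chain of a serum protease inhibitor that binds hyaluronan, had -0.98, -4.37, -5.86 and -2.73. Likeness here is over 4 hybridisations of the same comparison and describes only the size of the ratios.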

How the data were processed

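Log2 ratios of 4 two-colour arrays were used as the authors deposited them; image analysis, background correction, normalization and the quotient's direction are not given in any source used. The capped values are positive for arrays 1 and 2 but negative for arrays 3 and 4. This pattern cannot tell whether the ratios of 1 orientation carry a turned sign. Signs were used as deposited. Values beyond 15 either way were set to missing. Rows 1 to 6000 were read as they stand, arrays 2 to 4 at 3 rows higher for rows 8001 to 18000 and at 4 rows higher from row 18301, and the other 2300 rows were dropped. The offsets gave the highest mean correlation of array 1 with arrays 2 to 4 among 0 to 7 rows (r = 0.115, 0.0848 and 0.134). Of 20355 probes, 14030 had 1 gene symbol, 5 had several and 6320 none; 13994 matched a RefSeq gene (GRCm38.p6) by gene ID.

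The probes of each gene were averaged per array. Genes with 4 values were fitted in limma 3.58.1 (lmFit, eBayes) with a mean and a dye term coded 1 and -1, with Benjamini-Hochberg adjustment over all genes, after a check on simulated data. The genes and lists were chosen with earlier results of these data known. Named genes were all members, further MMPs and TIMPs, list genes with 1 sign on 4 arrays and a mean beyond 1, and the 5 genes nearest to the member furthest from 0; the other list genes were named after their values were seen. Alternatives covered the dye term, centring, scaling, missing values, probe summary, rows, capped values, variance estimate and single arrays.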

Additional observations from a re-analysis of the deposited data

How the results depend on the processing

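No alternative called any of the 7 genes at an adjusted p under 0.05, and the smallest adjusted p for a member was 0.064, for Timp3 with arrays scaled to a common spread. Timp3, Mmp14 and Mmp2 stayed below 0 in all of the 16 alternatives run for each, with ranges of -4.42 to -3.51, -2.60 to -1.27 and -1.30 to -0.72, which are also their ranges with 1 array left out. As each gene was below 0 on every array, leaving 1 array out could not turn its sign. Their probes all lie in rows 1 to 6000, so the settings for rows, offset and capped values left these means unchanged. Those settings are therefore no check of these genes. The number of all genes called, 0 as reported, was 6 in the fit without the dye term, 6 over single probes, 3 with the median of probes, and 1 each with scaled arrays, with probes of at least 3 values and with the last 150 rows left out; it was 0 without any 1 array. The last 2 settings were chosen after the data were seen. Genes at an unadjusted p under 0.05, 730 as reported, numbered 276 in rows 1 to 6000 only, where fewer genes were tested, and 355 to 981 with 1 array left out (355 without array 2). The 3 members at that level were 0 of 2 in the rows below row 6000, which hold no probe of Timp3, Mmp14 or Mmp2, and 2 to 3 with 1 array left out. Signs turned only for genes with means near 0. Timp1 had -0.50 in rows 1 to 6000, in the probe at row 1493 and without the last 150 rows, -0.29 with rows as deposited, and -0.0251 to 0.14 with 1 array left out (-0.003 without array 2). Timp4 had 0.15 in rows 1 to 6000 and in the probe at row 3579. Mmp9 had -0.0642 in the lower rows and in the probe at row 18813, and -0.0689 to 0.25 with 1 array left out. Mmp11 had -0.49 to 0.0308 with 1 array left out (5e-04 without array 4). The causes were not tested. The number of arrays, 4 hybridisations read as 1 sample per line, limits the precision.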

Other observations

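Probes of the same gene spread over means as follows. The range between probe means (probes with at least 3 values) was 0.31 for Mmp9, 0.72 for Timp4, 1.19 for Timp3, 1.22 for Mmp14 and 1.30 for Timp1, beside a median range of 0.65 over 2007 genes with several such probes. For Timp1, 80.2% of those genes had a smaller range. In windows of 250 rows either side of each of the 15 probes, array 1 lined up best with arrays 2 to 4 at the offset used here for 13 probes. For Mmp2 the correlation was 0.0956 at no offset and 0.103 at 1 row, and for the Timp1 probe at row 20342 it was 0.02 at 4 rows and 0.0918 at 2 rows. Arrays 2 to 4 had their last values at rows 20346 and 20347 and array 1 at row 20354. Of the markers of macrophages and other leukocytes, cells known for Mmp9 and Mmp12, 4 of 11 were measured on all arrays, with a median of 0.01 (range -1.17 to 1.03). Lyz2, a lysozyme gene, had -0.96, -0.27, -1.74 and -1.72 on arrays 1 to 4 (mean -1.17 ± 0.70, limma's adjusted p = 0.342), below 0 on 4 of 4 arrays. Mpeg1, a macrophage perforin gene, had -0.14, -0.45, 2.45 and 2.27 (mean 1.03 ± 1.54, limma's adjusted p = 0.369), with opposite signs in the dye orientations. Cd68 and Fcgr3 had -0.22 ± 0.39 and 0.24 ± 0.35. None of 19 values checked (7 genes, 9 probes and 3 averages) had an array apart from the other three by Dixon's test.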
